A study of Mus musculus with 8 samples.

Results

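The H3K4 methylation genes described here are 10 of the 37620 gene identifiers in the deposited expression table, chosen by symbol: the methyltransferase genes Kmt2a, Kmt2b, Kmt2c, Kmt2d, Setd1a and Setd1b, the complex subunit genes Cxxc1 and Wdr5, and the demethylase genes Kdm5a and Kdm5b. Their RNA was measured in 8 single C57BL/6 mouse oocytes at metaphase II of meiosis (MII), the stage at which eggs await fertilisation. The KO group was 4 oocytes of genotype Hiraf/f, Gdf9-Cre+, numbered 1, 3, 5 and 6, and the WT group was 4 oocytes of genotype Hiraf/f, numbered 1, 2, 4 and 5. Both groups thus carry the floxed Hira allele, and the title of every sample, WT included, has the tag Gdf9-Cre+, so genotypes were read from the labelled genotype and description, not from titles. Gdf9-Cre is a recombinase active in oocytes from early follicle stages on, and Hira encodes a chaperone that places the histone variant H3.3 in chromatin outside DNA replication. The labels give no age and name no female, so each genotype counts as 1 sample, no test between genotypes is possible, and every difference below describes these oocytes. An SD is the spread between 4 oocytes of a genotype, which can hold differences between cells, females and library preparations.

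Methylation of histone H3 at lysine 4 marks promoters and enhancers. KMT2 and SETD1 enzymes add it and work in complexes with shared subunits such as WDR5, and KDM5 enzymes remove the trimethyl form. Growing mouse oocytes lay this mark over unusually broad domains, mainly through KMT2B, and need CXXC1 for it, and the MII egg is transcriptionally silent and carries mRNA made earlier.

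Library totals recovered from the table lay between 38032455 and 50208686 reads. Values are FPKM, which divides reads by gene length and library total. Levels of different genes can so be set side by side, as far as the lengths used fit their transcripts. FPKM of at least 1 was reached by 7827 to 8512 genes in KO oocytes and 7121 to 7467 in WT oocytes. Summed over all listed genes, FPKM came to 284336 to 316109 in KO oocytes and 341192 to 343705 in WT oocytes. The genotypes do not overlap in this sum, so the scaling chosen shifts every fold. Hira itself had 0, 2, 0 and 2 reads in the KO oocytes and 42, 0, 96 and 1 in the WT oocytes, in order of oocyte number as throughout, which is the direction of the labels but a weak check, as WT oocytes also reached 0. All 10 oocyte markers were present, led by Dppa3, Oosp1 and Gdf9, and they summed to 8906 to 11257 FPKM in KO and to 15419.5 to 20547 FPKM in WT. Most of this sum was Dppa3, with means of 7077 FPKM in KO and 11909.6 in WT. Markers did not all go the same way: Ooep averaged 66.6 FPKM in KO and 39.1 in WT, and Nlrp5 145 and 144. Every other marker had a lower mean in KO, some with overlap between genotypes. Of 11 granulosa and cumulus cell markers, Amh, Amhr2 and Foxl2 had no read in any oocyte and only Cyp19a1, at 7.70 to 29.9 FPKM in KO and 16.6 to 27.5 in WT, reached 1 FPKM; the other 10 summed to 0.0124 to 0.376 FPKM in KO and 0.127 to 0.769 in WT. Of 9 blood and immune markers, 7 had no read, Adgre1, Lyz2 and the haemoglobin genes among them, and the list summed to 1.41 to 3.53 FPKM in KO, from Cd68 and Ptprc, against 0 to 2.17 in WT. The part of the summed oocyte markers in the results below was not tested.

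The promoters of Kmt2a, Kmt2c and Kdm5b are shown because CXXC1, KMT2A and KMT2B bind unmethylated CpG through a CXXC zinc finger, and because these 3 genes span the range from a writer near 0 to the most abundant writer. They are RefSeq sequences on GRCm38.p6, 250 bases before to 50 after the annotated start, 5′ to 3′ on the gene's strand (chr9:44881240-44881539 minus, chr5:25498734-25499033 minus and chr1:134559928-134560227 plus), with every CG in capitals.
Kmt2a: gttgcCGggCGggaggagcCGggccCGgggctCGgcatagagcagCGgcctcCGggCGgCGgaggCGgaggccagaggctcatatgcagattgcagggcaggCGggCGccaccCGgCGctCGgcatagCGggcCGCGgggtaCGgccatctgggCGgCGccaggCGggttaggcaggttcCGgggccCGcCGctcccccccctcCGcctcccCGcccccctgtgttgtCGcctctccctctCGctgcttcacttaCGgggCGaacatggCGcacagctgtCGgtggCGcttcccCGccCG
Kmt2c: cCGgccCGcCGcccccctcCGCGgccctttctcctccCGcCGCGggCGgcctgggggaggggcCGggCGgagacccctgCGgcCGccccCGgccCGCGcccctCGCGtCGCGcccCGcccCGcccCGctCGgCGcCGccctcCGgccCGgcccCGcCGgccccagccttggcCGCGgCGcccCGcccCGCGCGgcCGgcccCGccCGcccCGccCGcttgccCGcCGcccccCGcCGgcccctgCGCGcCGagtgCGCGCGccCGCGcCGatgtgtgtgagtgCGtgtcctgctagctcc
Kdm5b: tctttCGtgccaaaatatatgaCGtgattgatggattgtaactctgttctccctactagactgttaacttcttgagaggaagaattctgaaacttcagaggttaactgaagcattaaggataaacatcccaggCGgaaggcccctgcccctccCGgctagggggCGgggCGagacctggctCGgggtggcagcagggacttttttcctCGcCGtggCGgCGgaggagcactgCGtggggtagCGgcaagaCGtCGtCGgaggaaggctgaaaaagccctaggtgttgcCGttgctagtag
The Kmt2c window holds 56 CpG, that of Kmt2a 36 and that of Kdm5b 17, where the median over all 32851 promoters of this length is 7.00 and 94.6% hold at least 1. The searched motif, CG, reads the same on both strands. Of the 6 members with a promoter in the table, these and Kmt2d, Setd1a and Wdr5, 6 had a GC content over 50% with a CpG ratio, observed over expected, above 0.6, as did 33.3% of all promoters. The start sites used in these oocytes and the methylation of these promoters were not measured, so CpG content is set beside the RNA levels as a description. It did not order them: Kmt2a, with the second most CpG of the 6, was the least abundant member in both genotypes.

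Among the writers, Kmt2c had the highest FPKM in every oocyte, nearest to the next writer in WT oocyte 1, and Kmt2a was almost absent. Kmt2c encodes MLL3, which places monomethyl marks at enhancers. It had 14.8, 18.7, 17.0 and 19.6 FPKM in KO oocytes, from 13001 to 18838 reads, against 19.0, 19.3, 20.3 and 18.1 FPKM in WT oocytes, from 13972 to 20708 reads. KO oocyte 1 was the lowest of the 8 and the groups overlap. The KO mean of 17.5 ± 2.11 FPKM was 0.914 times the WT mean of 19.2 ± 0.913 (SD, n = 4 oocytes each). The difference, KO minus WT in mean log2(FPKM + 1), was -0.13, and turned to 0.07 when every oocyte was scaled to the same sum over listed genes. Kmt2c varied little between oocytes, with a coefficient of variation of 12.0% in KO and 4.76% in WT. Over the 1572 genes with a mean of 10 to 30 FPKM, the median coefficient was 24.7% in KO and 28.5% in WT, and 12.0% of them in KO and 0.763% in WT had a lower one than Kmt2c. These genes were matched on FPKM and not on reads, and Kmt2c is long, at 20296 bases. The part of length and read number in its low spread was not tested. By mean FPKM it stood at percentile 74.0 of the 7833 genes that reached 1 FPKM in at least 4 of the 8 oocytes, called compared genes below. Of the other 7832 compared genes, Nmt1, Fkbp3 and Tmed2 followed Kmt2c most closely over the 8 oocytes, with Pearson correlations of log2(FPKM + 1) of 0.940, 0.939 and 0.934, found by searching all of them in 8 libraries that also share differences in depth and genotype.

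Kmt2d, the paralogue of Kmt2c that encodes MLL4, came next. Its values were 4.60, 5.54, 5.47 and 4.21 FPKM in KO oocytes, against 11.0, 4.54, 4.90 and 3.90 FPKM in WT oocytes. WT oocyte 1 was more than 2-fold above the other WT oocytes, which lay among the KO oocytes. The ratio of KO to WT means was 0.816, and 1.11 without WT oocyte 1, so the direction of this difference rests on that oocyte. The log2 difference was -0.16 as deposited and 0.02 with scaling to the same sum.

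Kmt2b, the writer that mouse oocytes are known to rely on for bulk H3K4 trimethylation, was a low transcript in the mature egg. It had 1.13, 1.21, 1.18 and 2.05 FPKM in KO oocytes, from 454 to 932 reads, against 1.73, 4.00, 2.07 and 1.16 FPKM in WT oocytes, from 423 to 1739 reads. KO oocyte 6 and WT oocyte 2 were the highest of their genotypes, WT oocyte 5 lay among the low KO oocytes, and the groups overlap. The KO mean of 1.39 ± 0.441 FPKM was 0.621 times the WT mean of 2.24 ± 1.23, and 0.842 times without WT oocyte 2. The log2 difference of -0.38 was about as large as the SD within genotypes of 0.40, and kept its sign under every alternative run. By mean FPKM, Kmt2b stood at percentile 16.8 of compared genes.

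Kmt2a, which encodes MLL1, had reads in 2 of the 8 oocytes only. KO oocyte 3 held 0.129 FPKM and the other KO oocytes 0, and WT oocyte 2 held 0.0357 FPKM and the other WT oocytes 0. These values correspond to 84 and 27 reads if the gene length is the whole multiple nearest to its GENCODE M21 exon length of 16670 bases. In an oocyte with no read, 3 reads would have given 0.00359 to 0.00473 FPKM, which covers counting error only. Kmt2a thus stayed below 1 FPKM in every oocyte, and no fold is given.

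The SETD1 writers were low as well. Setd1a had 0.640, 1.68, 1.57 and 1.06 FPKM in KO oocytes and 1.44, 0.549, 1.02 and 1.15 in WT oocytes, with overlap, a ratio of means of 1.19 and a log2 difference of 0.13 against an SD within genotypes of 0.30. Its sign turned with a replicate block, to -0.16. Setd1b had 0.483, 0.497, 0.679 and 0.381 FPKM in KO oocytes, against 0.0916, 0.144, 0.372 and 0.206 FPKM in WT oocytes. Every KO oocyte was above every WT oocyte, by a margin of only 0.381 against 0.372 FPKM between KO oocyte 6 and WT oocyte 4, which held 196 and 203 reads. The ratio of means was 2.51 and lay between 2.12 and 3.47 when single oocytes were left out. Setd1b stayed under 1 FPKM in all 8 oocytes and so was not compared. Among 18416 genes with any read, a share of 36.9% was 2-fold or more higher in KO, and 8.46% had every KO oocyte above every WT oocyte.

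**Figure D1:**
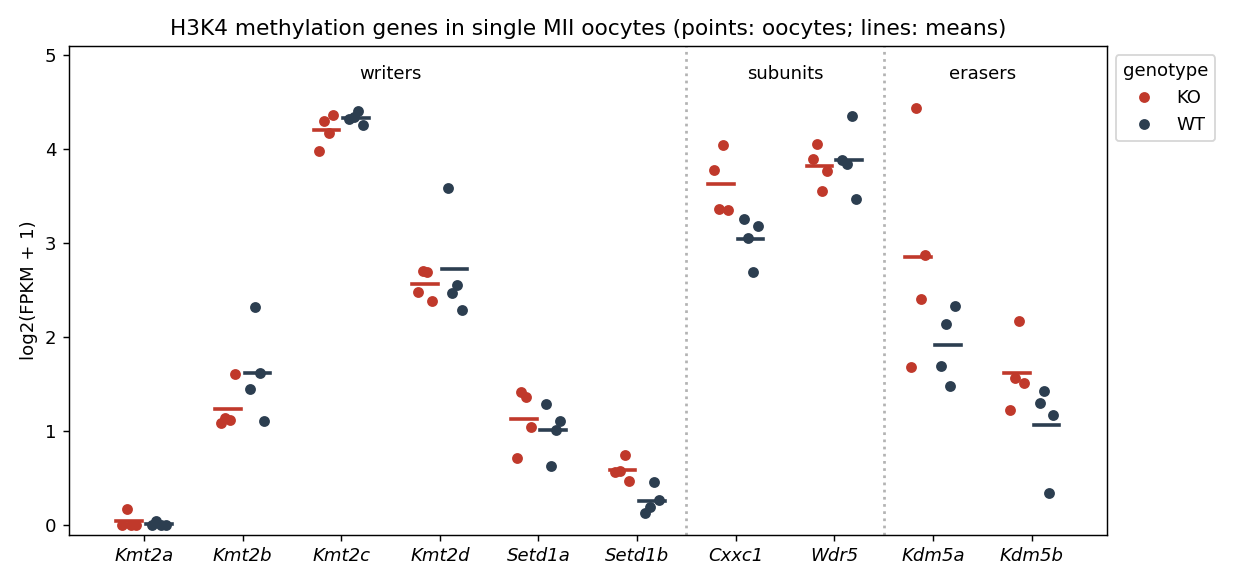
Level of each of the 10 genes in each oocyte, as log2(FPKM + 1), with KO oocytes left of WT oocytes, points for single oocytes and lines for the mean of 4. Kmt2c, Wdr5 and Cxxc1 are the highest on average in both genotypes, Kmt2a is at or near 0, KO oocyte 3 stands high for Kdm5a at 20.7 FPKM, and Cxxc1 and Setd1b are the genes whose genotypes do not overlap.

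The summed RNA of the 6 writers overlapped between genotypes, and so did its make-up. KO oocytes had 21.7, 27.8, 25.9 and 27.3 FPKM in all, and WT oocytes 33.3, 28.6, 28.7 and 24.5. Kmt2c supplied 68.3% ± 2.58 of the sum in KO and 67.4% ± 7.23 in WT, where WT oocyte 1, the one with high Kmt2d, was lowest at 57.2%. Kmt2b supplied 5.40% ± 1.45 in KO and 7.79% ± 4.28 in WT, and the SETD1 genes together 6.74% ± 1.78 in KO and 4.35% ± 1.34 in WT.

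**Figure D2:**
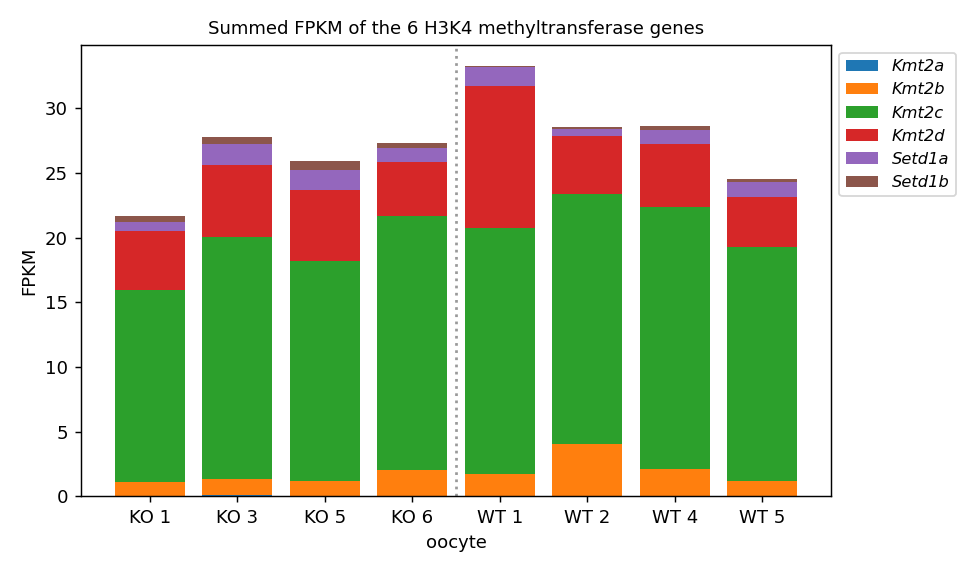
Stacked bars of FPKM of the 6 writer genes in each oocyte, KO oocytes left and WT oocytes right of the dotted line. Kmt2c makes up 65.7% to 71.8% of each KO bar and 57.2% to 73.8% of each WT bar, and WT oocyte 1 has the tallest Kmt2d segment.

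The subunit genes differed from each other in how they lay between genotypes. Cxxc1, whose product CXXC1 (CFP1) brings the SETD1 complexes to unmethylated CpG, was higher in KO. It had 12.7, 9.28, 15.5 and 9.21 FPKM in KO oocytes, against 8.57, 7.34, 5.49 and 8.09 FPKM in WT oocytes. Every KO oocyte was above every WT oocyte, as for 13.4% of compared genes, and no other compared member showed this. The KO mean was 11.7 ± 3.03 FPKM and the WT mean 7.37 ± 1.36, a ratio of 1.58 that stayed between 1.41 and 1.69 when single oocytes were left out. Its log2 difference was 0.58, against an SD within genotypes of 0.30. With median-of-ratios scaling the difference was 0.48, and with scaling to the same sum 0.77. Cxxc1 exceeded its SETD1 partners in level, with 7.21 ± 2.94 times the summed FPKM of Setd1a and Setd1b in KO and 6.53 ± 2.85 times in WT. Wdr5, the scaffold common to all 6 writer complexes, had 13.9, 15.7, 10.8 and 12.6 FPKM in KO oocytes, against 13.8, 13.4, 19.5 and 10.1 FPKM in WT oocytes. The WT oocytes held both the highest and the lowest value, and the ratio of means was 0.932, with a log2 difference of -0.07 that turned to 0.13 with scaling to the same sum.

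The erasers were higher in KO by their means, with overlap for both. Kdm5a, a demethylase of di- and trimethylated H3K4 first known as a partner of the retinoblastoma protein, had 2.21, 20.7, 4.32 and 6.35 FPKM in KO oocytes, against 2.23, 3.41, 1.80 and 4.05 FPKM in WT oocytes. KO oocyte 3, with 11440 reads, was far above the rest, and KO oocyte 1, with 1355 reads, lay among the WT oocytes. The KO mean of 8.39 ± 8.37 FPKM was 2.92 times the WT mean of 2.87 ± 1.04, but 1.49 times without KO oocyte 3. The log2 difference of 0.94 compares with an SD within genotypes of 0.87. With the oocyte number as a replicate block, which can use only numbers 1 and 5, it was 0.03. GENCODE M21 places 1.77% of the exon bases of Kdm5a within Ccdc77 on the other strand. Ccdc77 had 3.78 FPKM in KO oocyte 3, among KO values of 3.57 to 4.56, against 1.63 to 3.36 in WT. The part of reads from shared sequence in the Kdm5a values was not tested.

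Kdm5b, the demethylase that mouse embryos are known to use to clear the broad maternal H3K4me3 domains after fertilisation, had 1.34, 1.97, 3.50 and 1.86 FPKM in KO oocytes, against 1.47, 1.70, 0.267 and 1.25 FPKM in WT oocytes. KO oocytes 3, 5 and 6 were above all WT oocytes, KO oocyte 1 was not, and WT oocyte 4 was the lowest. The ratio of means was 1.85, below the 2-fold line, and lay between 1.47 and 2.18 when single oocytes were left out. The log2 difference was 0.56, against an SD within genotypes of 0.45. Together Kdm5a and Kdm5b summed to 3.54, 22.6, 7.82 and 8.21 FPKM in KO oocytes and to 3.70, 5.11, 2.06 and 5.30 in WT oocytes, so that KO oocyte 1 again lay within the WT range. Summed writers exceeded these 2 erasers in every oocyte, by 1.23 to 6.11 times in KO and 4.63 to 13.9 times in WT. This leaves out the paralogue Kdm5c, described next. With Kdm5c added, the eraser sum of KO oocyte 3 was 32.4 FPKM, above its writer sum of 27.8 FPKM. In every other oocyte the eraser sum with Kdm5c was below the writer sum. These sums also leave out the KDM1 erasers, described below. Kdm1a averaged 21.7 FPKM in KO and 18.3 in WT, and Kdm1b 41.0 in KO and 17.3 in WT. Kdm1b alone exceeded the writer sum in each KO oocyte and in no WT oocyte. The sums are thus no balance of all writers and erasers.

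The X-linked paralogue Kdm5c was the most abundant eraser of the family in WT and overlapped between genotypes. It had 10.1, 9.79, 5.44 and 3.39 FPKM in KO oocytes and 8.99, 10.8, 7.07 and 6.76 in WT oocytes, with a ratio of means of 0.852. With Kdm5c added, and with Kdm5d, which had no read in any oocyte, the family summed to 13.6, 32.4, 13.3 and 11.6 FPKM in KO and to 12.7, 16.0, 9.13 and 12.1 in WT. KO oocyte 3 is the only one of the KO oocytes above the WT range, and without it the KO mean of the sum was 12.8 FPKM, against a WT mean of 12.5. Kdm5c supplied 74.0%, 30.2%, 41.0% and 29.2% of the family sum in KO oocytes, against 70.9%, 68.0%, 77.4% and 56.1% in WT oocytes, and only KO oocyte 1 lay within the WT range.

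**Figure D3:**
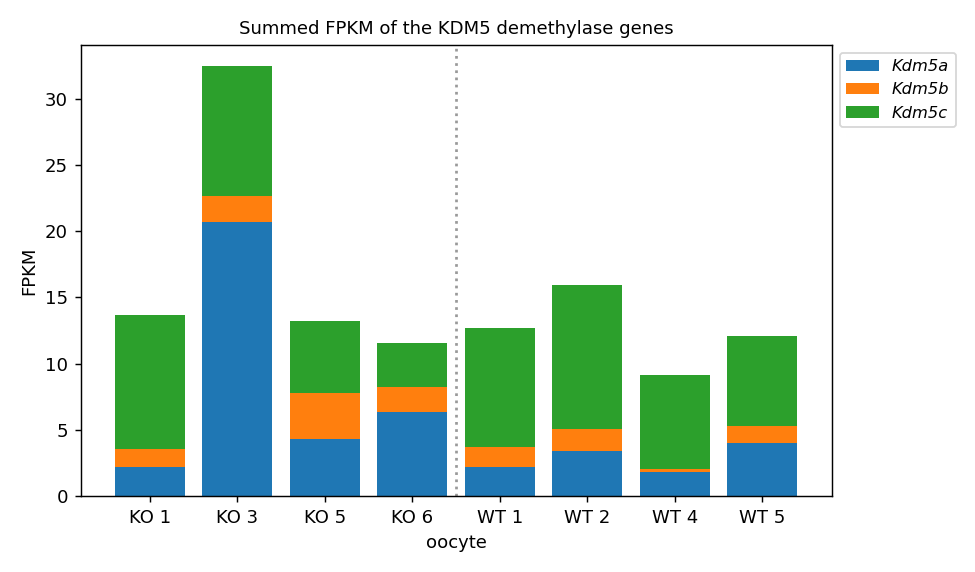
Stacked bars of FPKM of Kdm5a, Kdm5b and Kdm5c in each oocyte, KO oocytes left and WT oocytes right of the dotted line. KO oocyte 3 reaches 32.4 FPKM through its Kdm5a segment, and the other KO oocytes, at 11.6 to 13.6 FPKM, lie within the WT range of 9.13 to 16.0.

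Of the 10 members 8 were compared, since Kmt2a and Setd1b failed the filter in both genotypes. Of these 8, only Kdm5a was at least 2-fold higher in KO, which is 12.5%, where 18.3% of all compared genes were, and 0 were at least 2-fold lower, where 6.84% of all compared genes were. The count of 1 was 0 without KO oocyte 3, which decides the Kdm5a fold, and was 2 without KO oocyte 1, without WT oocyte 1 or without WT oocyte 2, with Kdm5b as the added gene. The median log2 difference of the 8 was 0.03 and that of all compared genes 0.10, with 4 members higher and 4 lower in KO. Scaling to the same sum moved the median of all compared genes to 0.27 and median-of-ratios scaling moved it to 0.01.

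**Figure D4:**
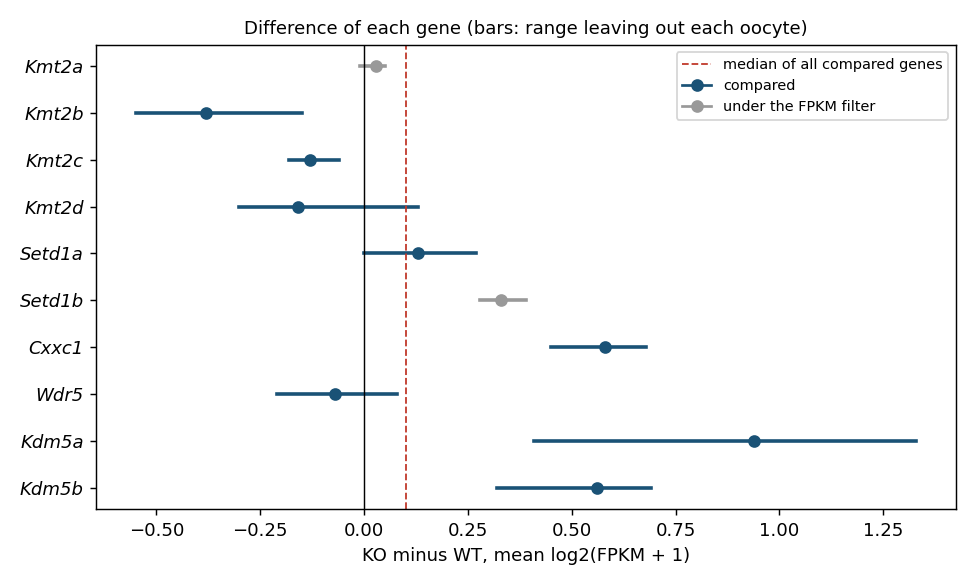
Difference of each gene, KO minus WT in mean log2(FPKM + 1), as a point, with a bar from the lowest to the highest value when each oocyte in turn is left out, and a dashed line at 0.10, the median of all compared genes. Kdm5a has the widest bar, from 0.41 to 1.33. The bars of Kmt2a, Kmt2d and Wdr5 cross 0, and that of Setd1a reaches 0 without WT oocyte 2. The whole bars of Setd1b, Cxxc1, Kdm5a and Kdm5b lie right of the dashed line.

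The order of levels was much the same in both genotypes. In KO it ran from Kmt2c through Wdr5, Cxxc1, Kdm5a, Kmt2d, Kdm5b, Kmt2b, Setd1a and Setd1b to Kmt2a, and in WT from Kmt2c through Wdr5, Cxxc1, Kmt2d, Kdm5a, Kmt2b, Kdm5b, Setd1a and Setd1b to Kmt2a. Ranges over 4 oocytes of neighbours in this order overlapped in KO except between Kmt2d and Kdm5b and between Setd1b and Kmt2a, and in WT except between Wdr5 and Cxxc1, between Setd1a and Setd1b and between Setd1b and Kmt2a. Oligo(dT)-primed cDNA can underrepresent the 5′ part of long transcripts, and coverage along these genes, of which Kmt2c, Kmt2d and Kmt2a are among the longest, was not measured. The order also rests on the gene lengths behind the deposited values. The smallest length that fits is 7760 bases for Kdm5b and 2618 for Cxxc1, against 16555 and 3925 in GENCODE M21.

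Beyond the members, 52 other genes of H3K4 methylation were examined, of which 43 were compared. Of the 43, 6 were at least 2-fold higher in KO, 14.0% against 18.3% of all compared genes, and 1 was at least 2-fold lower, 2.33% against 6.84%. Among the 6 is Rcor3, which passed the filter through its KO oocytes alone, as did 163 of all 7833 compared genes. Every KO oocyte was above every WT oocyte for 7 of the 43, where 13.4% of all compared genes showed this, and below for 2, where 7.37% did. Their median log2 difference was 0.25, against 0.10 over all compared genes. None of the 10 compared partners of the KMT2 and SETD1 enzymes passed the 2-fold line. Dpy30, a core subunit and 1 of the 3 most abundant genes of the list, had 1157, 1138, 1068 and 1028 FPKM in KO oocytes and 1010.1, 1297, 1207 and 1379 in WT oocytes, a ratio of means of 0.897. Its log2 difference of -0.15 turned to 0.06 with scaling to the same sum. Ash2l, another core subunit, averaged 0.748 ± 0.711 FPKM in KO and 0.686 ± 0.350 in WT and was not compared. Men1, which encodes menin, a partner of KMT2A and KMT2B, was not compared either, as it stayed under 1 FPKM, and had 0.0268, 0.0148, 0.0131 and 0.354 FPKM in KO oocytes, against 0.918, 0, 0.812 and 0.471 FPKM in WT oocytes. The genotypes overlap, and the ratio of means was 0.186, or 0.0331 without KO oocyte 6, from 66 reads in KO and 340 in WT.

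Of 3 compared writers and related SET or PRDM genes outside the KMT2A to KMT2D and SETD1 families, 2 were at least 2-fold higher in KO, where 18.3% of all compared genes were. Prdm9, the germ-cell H3K4 methyltransferase that sets meiotic recombination hotspots, had 8.23, 7.39, 11.6 and 14.8 FPKM in KO oocytes, against 0.923, 2.35, 2.67 and 1.83 FPKM in WT oocytes. The genotypes do not overlap, and the ratio of means was 5.41, or 4.61 to 6.18 when single oocytes were left out. Kmt2e, related to the KMT2 family but not known as an active methyltransferase, had 4.23, 2.69, 3.01 and 3.05 FPKM in KO oocytes and 0.891, 1.56, 1.20 and 0.449 in WT oocytes, a ratio of 3.17 without overlap. GENCODE M21 places 9.31% of the exon bases of Kmt2e within Srpk2 on the other strand, which averaged 64.5 ± 10.8 FPKM in KO and 59.0 ± 6.68 in WT. Smyd3 was the other compared gene, with a ratio of 1.02.

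The KDM1 demethylases, which act on mono- and dimethylated H3K4, gave unequal values. Kdm1b, which clears H3K4 methylation at imprinted regions in growing oocytes, had 35.8, 31.1, 46.8 and 50.3 FPKM in KO oocytes, against 17.6, 15.3, 14.8 and 21.6 FPKM in WT oocytes, a ratio of means of 2.36 with no overlap. GENCODE M21 places 9.19% of its exon bases within Dek on the other strand, which averaged 55.4 ± 21.5 FPKM in KO and 65.3 ± 10.3 in WT. Kdm1a had 23.0, 25.4, 18.5 and 19.9 FPKM in KO oocytes and 13.4, 22.4, 19.2 and 18.0 in WT oocytes, a ratio of means of 1.19 with overlap. Kdm1b had 1.96 ± 0.671 times the FPKM of Kdm1a in KO and 0.992 ± 0.312 times in WT, and KO oocyte 3, at 1.23, lay within the WT range of 0.683 to 1.32.

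Of 5 compared partners of KDM1A in the CoREST complex, 2 were at least 2-fold higher in KO, against 18.3% of all compared genes, and 1 of these, Rcor3, was compared only because of its KO oocytes. Hdac1, a histone deacetylase, had 20.3, 18.2, 27.9 and 28.4 FPKM in KO oocytes, against 2.33, 4.52, 3.32 and 2.92 FPKM in WT oocytes. All KO oocytes were at least 4-fold above the highest WT oocyte, and the ratio of means was 7.24, or 6.61 to 8.29 when single oocytes were left out. Of its transcript 50-mers 35.5% also occur in other annotated genes, most of them in the pseudogene Gm10093, which had at most 0.0573 FPKM in KO and 0.0504 in WT, and the sources used here do not say how shared reads were counted. Hdac2 had a ratio of 1.94, also without overlap, and 1.45 without KO oocyte 6. Rcor3, a CoREST scaffold, had 1.26 to 1.80 FPKM in KO and 0.0325 to 0.659 in WT. It passed the filter through its KO oocytes alone and so had to be higher in KO to be counted, and its ratio of 6.83 was 20.6 without WT oocyte 4.

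Readers of H3K4 methylation went both ways. Spin1, which binds trimethylated H3K4 and is the most abundant gene of the list, had 1884, 2547, 2728 and 1833 FPKM in KO oocytes, against 8187, 5228, 4579.8 and 5416 FPKM in WT oocytes, a ratio of means of 0.384 without overlap. Ing4, a subunit of the HBO1 acetyltransferase complex, had 40.2, 45.2, 79.9 and 137 FPKM in KO oocytes, against 10.2, 18.7, 13.9 and 17.8 FPKM in WT oocytes. KO oocyte 6 was the highest, the genotypes do not overlap, and the ratio of means was 4.98, or 3.64 without KO oocyte 6. GENCODE M21 places 34.9% of the exon bases of Ing4 within Gm44597, a transcript on the same strand that the FPKM table does not list. Ing1, a subunit of a SIN3 histone deacetylase complex, averaged 227 ± 50.4 FPKM in KO and 190.0 ± 21.4 in WT with overlap. The other 10 compared readers stayed within 2-fold. All 9 genes of H2B ubiquitination and the PAF1 complex, which act upstream of H3K4 trimethylation, were compared and stayed within 2-fold, and Rnf20, an E3 ligase for H2B, was lower in every KO oocyte than in any WT oocyte, at 17.8 ± 1.27 FPKM in KO and 27.9 ± 3.61 in WT.

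**Figure D5:**
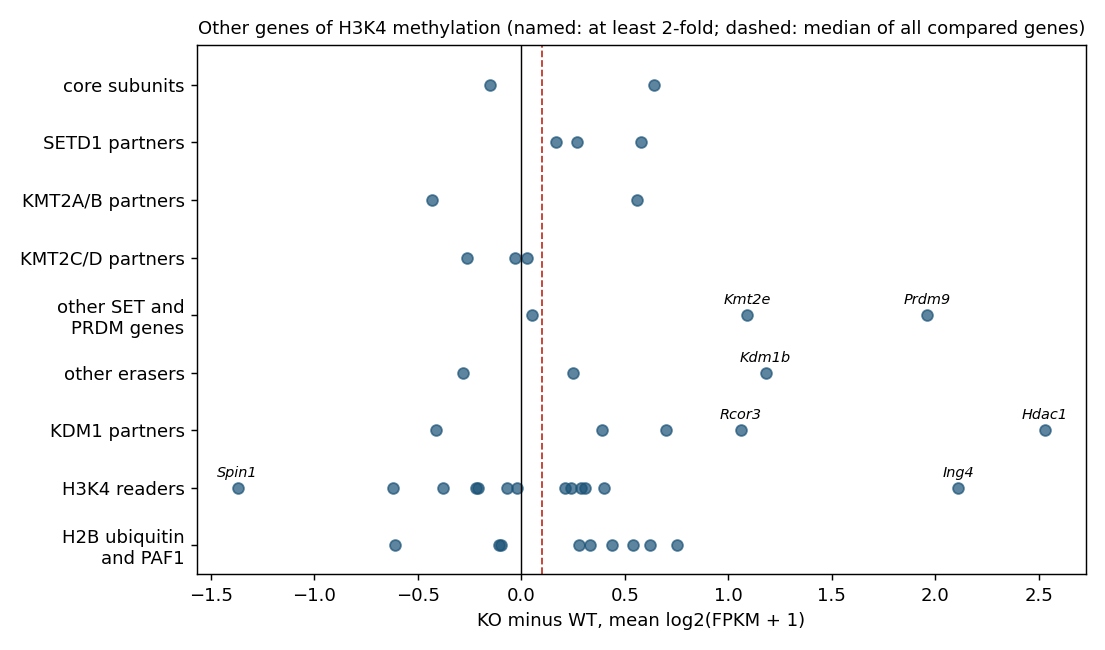
Difference of the 43 compared genes outside the members, KO minus WT in mean log2(FPKM + 1), by role, with each point a gene and a dashed line at 0.10, the median of all compared genes. Hdac1, Ing4, Prdm9, Kdm1b, Kmt2e and Rcor3 are at least 2-fold higher in mean FPKM in KO, Spin1 is at least 2-fold lower, and the partners of the KMT2 and SETD1 enzymes lie between -0.43 and 0.64. Rcor3 passed the filter through its KO oocytes alone.

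On GRCm38, GENCODE M21 places the members on 8 chromosomes: Kmt2a (ENSMUSG00000002028) at chr9:44803355-44881296, Kmt2b (ENSMUSG00000006307) at chr7:30568858-30588726, Kmt2c (ENSMUSG00000038056) at chr5:25271798-25498783 and Kmt2d (ENSMUSG00000048154) at chr15:98831669-98871204, all on the minus strand. The others lie on the plus strand: Setd1a (ENSMUSG00000042308) at chr7:127776670-127800122, Setd1b (ENSMUSG00000038384) at chr5:123142193-123168629, Cxxc1 (ENSMUSG00000024560) at chr18:74216124-74221496, Wdr5 (ENSMUSG00000026917) at chr2:27515157-27536535, Kdm5a (ENSMUSG00000030180) at chr6:120364124-120444574 and Kdm5b (ENSMUSG00000042207) at chr1:134560171-134635285. Each value sums reads over all annotated exons of its gene, UTRs included as far as the authors' annotation had them. Of the exon bases of Setd1a, 52.3% are shared with another M21 gene, and for the other members at most 2.27% are. The gene that overlaps Setd1a most, Gm49388, is not listed in the FPKM table, so reads there could not be split between listed genes.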

How the data were processed

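The data are RNA-seq of 8 single MII oocytes. Amplified cDNA came from 1 oocyte per library, with the SMARTer ultra-low-input chemistry and added ERCC RNA, per the labels' protocols; ERCC values were not used here, so levels are relative within a library. The authors deposited FPKM per Ensembl gene, 1 column per oocyte. The build mm9 and the tools edgeR 3.1.10, HTSeq, TopHat2 2.0.2, Bowtie2 and Bowtie 0.12.8 are listed, without their roles, per the submitters' processing notes. The sources used here do not give the annotation release or the use of strand.

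Of 37620 identifiers, 32897 matched a symbol in a gene name table. FPKM moved in steps of 1 read. A library total was the total implied most often when the values of genes with a GENCODE M21 exon length were each taken as 1 read. A gene's reads came from the smallest length that gave whole reads in all 8 oocytes within 0.01 reads, a tolerance widened for high read numbers. Read numbers are thus the smallest that fit. The lengths found differed from M21 for some genes, as for Kmt2e, at 7494 against 10444 bases. Shares of exon bases given on M21 thus need not hold for the exons that were counted. For genes with reads in fewer than 3 oocytes, Kmt2a among them, the multiple of that length nearest to the M21 length was used. Compared genes had FPKM of at least 1 in at least 4 oocytes. A difference is the KO mean minus the WT mean of log2(FPKM + 1), in which low genes show less change than their folds; a fold is the ratio of mean FPKM, read against a 2-fold line. PCR copies are not separate molecules, so read numbers speak of counting error only.

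The 10 members and the 52 pathway genes were chosen with earlier results of these data known. Named were all members, pathway genes past 2-fold and the 3 most abundant, the 3 genes most like the most abundant member, Hira and the top markers; other genes were named after their values were seen. Alternatives covered pseudocount, filter, scaling, medians, each oocyte left out and a replicate block. Scripts were tested on simulated data and ran in Python 3.11.15, numpy 2.4.6 and pandas 2.3.3.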

Additional observations from a re-analysis of the deposited data

Results flagged for a closer look

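Kmt2a had reads in 1 oocyte of each genotype, 0.129 FPKM in KO oocyte 3 and 0.0357 FPKM in WT oocyte 2, and with 0 in the other 3 these oocytes stand apart by construction. In 4 of the 46 other groups of 4 oocytes examined, 1 oocyte stood apart from the other 3 by more than Dixon's critical value for the gap as a share of the range. Chance alone passes that value in about 1 of 20 groups of independent, normally distributed values. The groups here include sums and shares of the same genes, and the distribution of FPKM was not checked, so their own rate is not known. KO oocyte 6 had 2.05 FPKM of Kmt2b, where the other KO oocytes had 1.13 to 1.21. WT oocyte 1 had 11.0 FPKM of Kmt2d, where the other WT oocytes had 3.90 to 4.90. WT oocyte 4 had 0.659 FPKM of Rcor3, where the other WT oocytes had 0.0325 to 0.111. The KDM5 family summed to 32.4 FPKM in KO oocyte 3, where the other KO oocytes had 11.6 to 13.6.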

How the results depend on the processing

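The count of members at least 2-fold higher in KO, 1 as reported, was 3 with no filter, 2 with scaling to the same sum, 0 with median FPKM, 0 with a replicate block, and 0 to 2 when single oocytes were left out. The count at least 2-fold lower was 0 in all 16 alternatives. The median difference of the members stayed within 1 SD of 0.03, from -0.07 with a mean FPKM of at least 5 to 0.18 with scaling to the same sum. Of the pathway genes, 6 as reported were at least 2-fold higher. The count was 4 with a mean FPKM of at least 5, 9 with a replicate block, 10 with scaling to the same sum, and 5 to 8 when single oocytes were left out. At least 2-fold lower were 1 as reported, 3 with no filter and 2 with a replicate block. Of 160 member differences under alternatives, 10 had the other sign (Wdr5 in 4, Kmt2d in 3, and Kmt2a, Kmt2c and Setd1a in 1 each). Of the 160, 154 stayed within 1 SD of the reported value; the 6 others were Kdm5a with a replicate block (0.03), Kmt2a with a pseudocount of 0.1 (0.19), Kmt2c with scaling to the same sum (0.07) and Setd1b with pseudocounts of 0.1 (1.07) and 5 (0.08) and a replicate block (0.46). The block rests on oocytes 1 and 5, which share only a number: deviations from genotype means of same-numbered oocytes correlated at 0.03 and 0.07. Causes were not tested. Kmt2a, Setd1b and Setd1a rest on the fewest reads.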
